A study of Mus musculus with 8 samples.

Results

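The genes of the mitochondrial protein import machinery were examined in hearts of TAZG197V and wild-type (WT) mice. Members were all genes whose mouse symbol begins with Tomm or Timm followed by a number, together with Pam16, Dnajc15, Dnajc19, Grpel1, Grpel2, Mtx1, Mtx2, Mtx3, Chchd4, Gfer, Pmpca, Pmpcb, Mipep, Immp1l and Immp2l. This gave 41 of the 55471 genes in the files, of which 40 were protein-coding and 1, Tomm6os, was an antisense RNA. Of these 41 genes, 37 were among the 15084 genes that passed the low-count filter and were tested.

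Bulk RNA was sequenced from pieces of heart in 4 WT and 4 TAZG197V samples, from mice at 14 weeks of age. The TAZG197V mice carry a CRISPR/Cas9 knock-in of a missense point mutation in Taz, which matches a mutation found in patients with Barth syndrome and was made in C57BL/6N zygotes with later crosses to C57BL6/J. Taz lies on the X chromosome. The study states that hemizygous males were used, while its account of how the mice were bred, like the labels, speaks of homozygous offspring. The labels give no sex for the animals sampled. Neither genotype was treated, and the mutation is present in every cell type of the mouse. Nothing in the labels says how many founders or litters the animals came from.

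Most mitochondrial proteins are made in the cytosol and are imported through membrane translocases. The TOM complex forms the entry gate of the outer membrane, the TIM23 complex with its ATP-driven motor passes proteins with a cleavable presequence across the inner membrane, and the TIM22 complex inserts carrier proteins that small TIM chaperones escort through the intermembrane space. Further machinery folds cysteine-rich proteins by a disulfide relay (MIA) and removes presequences in the matrix. Taz encodes tafazzin, the enzyme that remodels cardiolipin, a phospholipid of the inner membrane in which several of these translocases sit.

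Total counts per library ranged from 23055689 to 36301031, and mitochondrially encoded genes took 21.6% to 24.6% of them. Taz, the edited gene, was at 63.8, 58.7, 61.9 and 59.3 CPM (counts relative to library size, scaled by TMM) in WT 1 to 4 and at 48.0, 50.4, 46.3 and 44.3 CPM in TAZG197V 1 to 4, a log2 fold change of -0.37 (standard error, SE, 0.0551, adjusted p = 0.00124). The counts do not show the base at the edited position. Both libraries numbered 4, and WT 2, stood apart in markers of other cells. Red cell markers summed to 55071.6 CPM in WT 4 and to 227.3 to 1065.0 CPM in the other 7 libraries, and brain markers to 107.7 CPM in WT 4 and 273.7 CPM in TAZG197V 4 against 8.91 to 12.2 CPM in the other 6. The 6 cardiomyocyte markers, all of them abundant in all libraries, summed to 48648.8 to 53520.1 CPM in WT and to 39363.6 to 43940.3 CPM in TAZG197V, and 4 of the 6 were called lower. Atrial markers summed to 1057.1 CPM in WT 2 and to 3.79 to 130.0 CPM in the other 7 libraries. Fibroblast markers summed to 1086.8 to 1721.2 CPM in WT and to 750.6 to 1081.7 CPM in TAZG197V, with 3 of 5 called lower, and endothelial markers to 604.0 to 860.2 and 482.3 to 641.6 CPM, with 2 of 5 called lower. In bulk tissue, fewer cells of a type and less RNA per cell cannot be told apart, and the part of these differences in the results on import genes was not tested.

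To address whether transcripts of the import machinery differ between the genotypes, each gene was compared between the 4 TAZG197V and the 4 WT libraries with edgeR. A gene was called when its adjusted p was under 0.05, its fitted level in one genotype was more than 15% above that in the other and its mean scaled count was at least 50. More import genes were called higher than lower in TAZG197V hearts. Of the 37 tested members 18 (48.6%) were called higher and 2 (5.41%) lower, while 17 were not called. Over all genes tested, 18.5% were called higher and 15.1% lower. Among the 12357 genes that reached the mean count of 50, as 36 of the 37 members did, these shares were 22.5% and 18.4%. Tested members had a median mean count of 1105, against 398.9 over all genes tested. None of the shares over all genes given here is matched for this difference in level. The median log2 fold change of the members was 0.21, and that of all genes tested was -0.01. The range ran from -0.41 for Timm29 to 0.92 for Timm10, with 28 members above 0 and 9 below it. In 14 members all 4 TAZG197V libraries lay above all 4 WT libraries, which held for 19.3% of all genes tested. In 1 member they all lay below, against 13.9% of all genes.

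**Figure D1:**
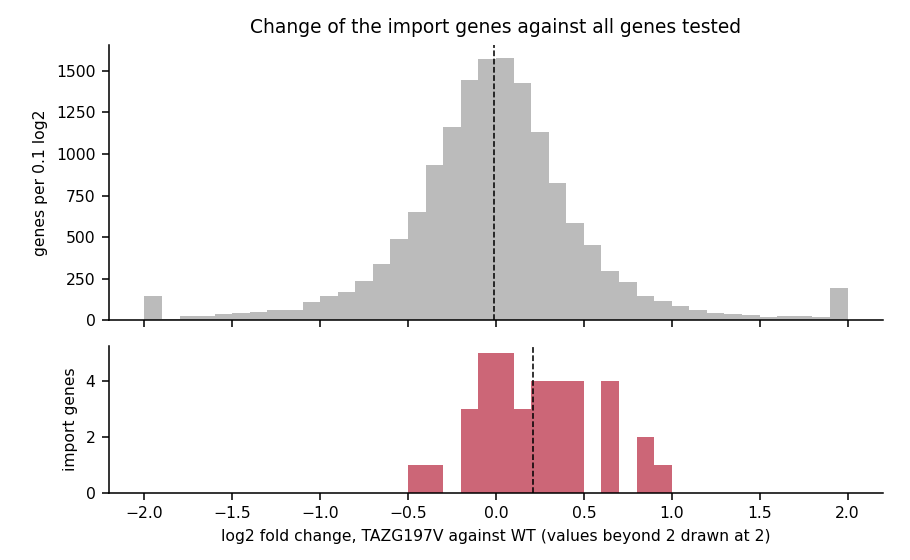
Number of genes (y axis) by log2 fold change of TAZG197V against WT (x axis, bins of 0.1), above for all 15084 genes tested and below for the 37 import genes tested. Dashed lines mark the medians, -0.01 for all genes and 0.21 for import genes, and the import genes lie between -0.41 and 0.92.

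At least 1 member of each of the 7 functional groups was called higher, and both members called lower, Timm22 and Timm29, encode subunits of the TIM22 complex. The groups hold only 2 to 8 tested genes. Over all genes tested 18.5% were called higher and 15.1% lower, and the counts by group below are to be read beside these shares. Whether the calls differ between groups was not tested. The members lie on 19 chromosomes, 2 of them on X.

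**Figure D2:**
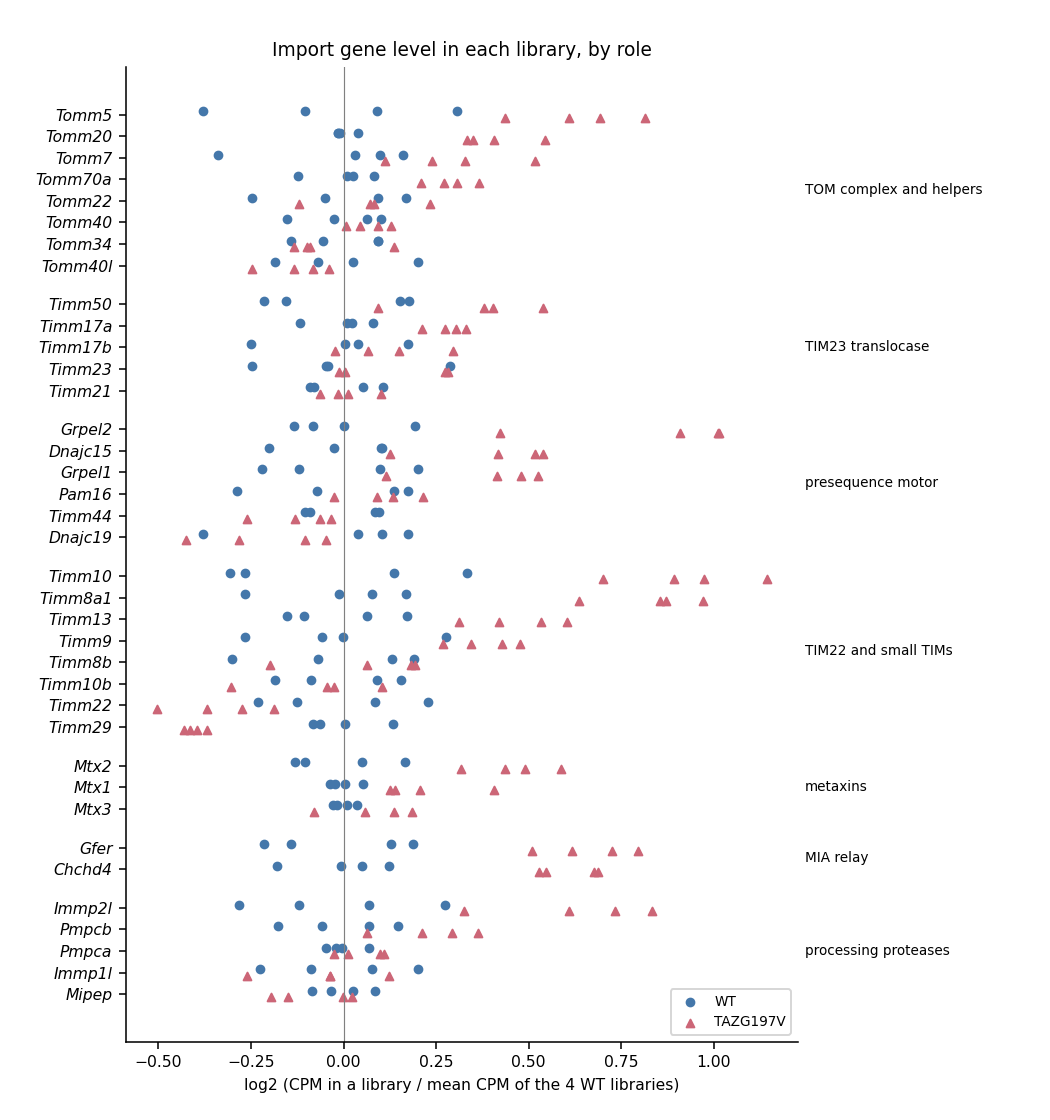
Level of the 37 tested import genes in each library as log2 of its CPM over the mean CPM of the 4 WT libraries (x axis), with genes grouped by role (y axis), WT libraries as circles and TAZG197V libraries as triangles. The triangles of Timm10, Timm8a1 and Grpel2 lie to the right of all circles, those of Timm29 lie to the left of all circles, and those of Timm8b and Pmpca overlap the circles.

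In the TOM complex and its helpers, 4 of 8 tested genes were called higher and 0 lower, with a median log2 fold change of 0.17. Tomm5 (chromosome 4, 45105208 to 45108114, mm10), which encodes a small subunit of the complex, showed the largest rise. It was at 35.6, 31.1, 41.3 and 25.7 CPM in WT 1 to 4 and at 51.0, 58.8, 54.0 and 45.2 CPM in TAZG197V 1 to 4. The number 4 library was the lowest in each genotype, and the genotypes did not overlap. Tomm5 was 1.57-fold higher in TAZG197V (log2 fold change 0.65, SE 0.0991, adjusted p = 0.00147).

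Both classes of import receptor were also represented. Tomm20, the receptor that recognises presequences, was at 25.8, 26.7, 25.7 and 25.7 CPM in WT and at 32.7, 34.4, 33.1 and 37.9 CPM in TAZG197V. The WT libraries differed little among themselves and lay below every TAZG197V library, and the log2 fold change was 0.42 (SE 0.0574, adjusted p = 0.000872). Tomm70a, the receptor for carrier precursors handed over by cytosolic chaperones, rose from 109.0 ± 6.47 to 133.4 ± 6.01 CPM (SD, n = 4 each), a log2 fold change of 0.27 without overlap. Tomm7, another small subunit, rose from 52.4 ± 7.59 to 64.8 ± 7.80 CPM (0.33), but TAZG197V 4 at 56.6 CPM lay within the WT range, and its adjusted p of 0.0151 became 0.0875 without surrogate variables in the fit.

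The channel itself and the central receptor were not called. Tomm40, the pore of the outer membrane, was at 52.0 ± 3.98 CPM in WT and 54.6 ± 2.05 CPM in TAZG197V, with a log2 fold change of 0.05 and a 95% interval from -0.08 to 0.18. Tomm22, which ties the receptors to the pore, had a log2 fold change of 0.07 with an interval from -0.09 to 0.23. Tomm34, a cytosolic cochaperone, gave -0.03, and Tomm40l, a close relative of the pore, gave -0.14. Of the exon bases of Tomm40l 64.3% lie in exons of other annotated genes, so its counts are uncertain.

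The other Tomm genes could not be tested. Tomm20l had 0 to 2 counts per library. Tomm6, a small subunit, had 1 to 7 counts and its antisense RNA Tomm6os 6 to 18 counts. Of the exon bases of Tomm6 84.2% lie in exons of other annotated genes, and 72.8% of its 50-base windows recur in another gene, so its low counts do not show a low transcript level.

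In the TIM23 translocase, 2 of 5 genes were called higher and 0 lower. Timm50, the receptor that takes presequences from the TOM complex, was at 51.0, 41.2, 51.9 and 39.6 CPM in WT and at 59.7, 66.7, 60.7 and 49.0 CPM in TAZG197V. TAZG197V 4 lay within the WT range and the other 3 lay above it. Its log2 fold change was 0.34 (SE 0.0696, adjusted p = 0.0056, and 0.056 with sequencing lane in place of the surrogate variables). Timm17a, one of a pair of alternative channel subunits, rose from 102.5 ± 5.84 to 124.6 ± 4.41 CPM without overlap, a log2 fold change of 0.29. Its counterpart Timm17b gave 0.14 with an interval from -0.04 to 0.33, and Timm21, which links the TIM23 complex to the TOM complex, gave 0.00 (-0.14 to 0.14). Timm23 itself was counted at only 2.48 ± 0.394 CPM in WT and 2.74 ± 0.308 CPM in TAZG197V, and 57.5% of its 50-base windows recur in other annotated genes, so its change (0.11, -0.26 to 0.47) was not well measured.

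In the presequence motor, 3 of 6 genes were called higher and 0 lower. Grpel2 (chromosome 18, 61712424 to 61726325), which encodes a nucleotide exchange factor of mitochondrial HSP70, was at 17.7, 16.7, 20.2 and 16.1 CPM in WT and at 35.7, 33.2, 35.6 and 23.7 CPM in TAZG197V. Every TAZG197V library lay above every WT library, with TAZG197V 4 well below the other 3. Grpel2 was 1.78-fold higher (log2 fold change 0.83, SE 0.067, adjusted p = 6.52e-05), the smallest adjusted p among the members. Grpel1, the more abundant exchange factor, rose from 112.8 ± 15.1 to 148.1 ± 18 CPM (0.38, adjusted p = 0.00167), with TAZG197V 4 at 122.2 CPM inside the WT range.

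The J-domain proteins of the motor, which stimulate HSP70, did not move together. Dnajc15 was at 80.3, 73.5, 80.4 and 65.1 CPM in WT and at 107.0, 108.8, 100.0 and 81.6 CPM in TAZG197V, a log2 fold change of 0.41 (SE 0.0569, adjusted p = 0.000978). The lowest TAZG197V library lay just above the highest WT library. Dnajc19, whose human counterpart is mutated in a cardiomyopathy with ataxia, was at 18.8, 17.1, 17.9 and 12.8 CPM in WT and at 13.7, 15.5, 16.1 and 12.4 CPM in TAZG197V. The genotypes overlapped and the gene was not called (log2 fold change -0.18, interval -0.39 to 0.02, adjusted p = 0.139). Without WT 4 the log2 fold change was -0.29 and the gene was called lower. Timm44, which tethers HSP70 to the translocase, gave -0.13 (adjusted p = 0.0811). Pam16, a partner of the J-domain proteins, was counted at under 1 CPM in every library and gave 0.13 with an interval from -0.32 to 0.59, and 35.7% of its 50-base windows recur in other genes.

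**Figure D3:**
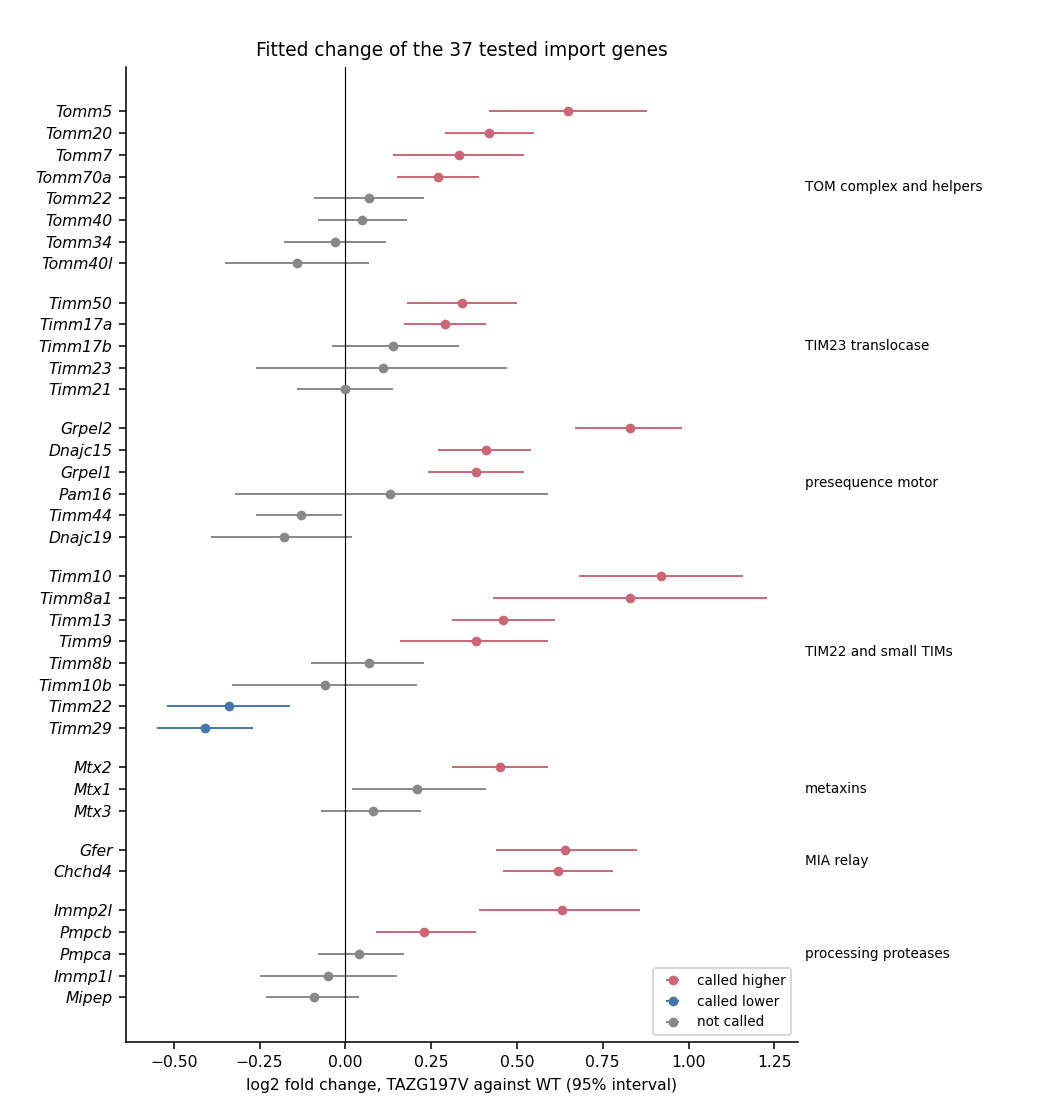
Fitted log2 fold change of TAZG197V against WT (x axis) with its 95% interval for each of the 37 tested import genes (y axis, grouped by role), coloured by whether the gene was called higher, lower or not called. Intervals are widest for Timm8a1, Timm23 and Pam16, which had few counts, and Timm22 and Timm29 are the members called lower.

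The TIM22 complex and the small TIM chaperones held the largest changes in both directions, with 4 of 8 tested genes called higher and 2 lower. Timm10 (chromosome 2, 84826997 to 84830213) was at 37.9, 28.7, 43.5 and 27.9 CPM in WT and at 64.1, 76.3, 67.8 and 56.1 CPM in TAZG197V. All TAZG197V libraries lay well above the WT libraries. Timm10 was 1.89-fold higher (log2 fold change 0.92, SE 0.105, adjusted p = 0.000349), the largest rise among the members. Timm9, the partner with which Timm10 forms a hexameric chaperone, rose less, from 15.5 ± 2.43 to 20.2 ± 1.30 CPM (0.38, adjusted p = 0.0138). For Timm9 the genotypes overlapped narrowly, with TAZG197V 4 at 18.7 CPM and WT 3 at 18.8 CPM.

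The second chaperone of the intermembrane space is built from the products of Timm8a1 and Timm13. Timm8a1 (chromosome X, 134537256 to 134541865), whose human counterpart is mutated in a deafness-dystonia syndrome, was at 1.62, 1.43, 1.20 and 1.52 CPM in WT and at 2.83, 2.64, 2.61 and 2.24 CPM in TAZG197V. The genotypes did not overlap, although these levels rest on 31 to 98 counts per library and 41.0% of its 50-base windows recur in other genes. Its log2 fold change was 0.83 (SE 0.174, adjusted p = 0.0068). Timm13 was at 42.8, 38.1, 46.2 and 36.9 CPM in WT and at 54.8, 62.3, 59.3 and 50.9 CPM in TAZG197V, a rise of 1.38-fold without overlap (0.46, SE 0.0656, adjusted p = 0.00105). Timm8b, a relative of Timm8a1, was not called (0.07, -0.10 to 0.23), nor was Timm10b, the small TIM bound to the TIM22 complex (-0.06, -0.33 to 0.21). The counts of both are uncertain, since other annotated genes overlap 15.6% of the exon bases of Timm8b and 22.1% of those of Timm10b. Timm8a2 had 0 counts in all libraries.

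The members called lower were Timm29 and Timm22. Timm29 (chromosome 9, 21592722 to 21595970), a metazoan subunit of the TIM22 complex, was at 70.6, 66.4, 77.2 and 67.3 CPM in WT and at 52.8, 53.5, 52.2 and 54.5 CPM in TAZG197V. The TAZG197V libraries were close to each other and all lay below the WT libraries. Timm29 was 1.33-fold lower (log2 fold change -0.41, SE 0.0628, adjusted p = 0.00149). Timm22, which encodes the channel subunit, was at 33.1, 28.6, 36.6 and 26.6 CPM in WT and at 24.2, 27.4, 25.8 and 22 CPM in TAZG197V. TAZG197V 2 lay above WT 4, so the genotypes overlapped, and the log2 fold change was -0.34 (SE 0.0795, adjusted p = 0.0109, and 0.0636 with sequencing lane in place of the surrogate variables). The call of Timm22 was also lost without surrogate variables.

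Promoters are shown for Timm10 and Timm29, at either end of the range of changes, and for Timm13, Timm8b and the motor gene Grpel1, in which a searched motif was found. The 250 bases before the RefSeq start site are given on GRCm38.p6, 5′ to 3′ in the direction of the gene, in lower case with motif matches in capitals:
Timm10, chr2:84826771-84827020, plus strand: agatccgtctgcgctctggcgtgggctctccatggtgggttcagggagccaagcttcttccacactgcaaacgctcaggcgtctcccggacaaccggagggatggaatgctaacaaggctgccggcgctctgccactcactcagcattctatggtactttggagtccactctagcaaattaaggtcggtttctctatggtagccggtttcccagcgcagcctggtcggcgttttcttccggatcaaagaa
Timm13, chr10:80900970-80901219, minus strand: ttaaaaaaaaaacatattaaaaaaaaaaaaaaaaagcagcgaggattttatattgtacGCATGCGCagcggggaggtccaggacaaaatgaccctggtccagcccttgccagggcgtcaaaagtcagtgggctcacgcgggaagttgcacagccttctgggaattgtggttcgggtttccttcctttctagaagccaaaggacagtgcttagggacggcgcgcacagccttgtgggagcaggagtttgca
Grpel1, chr5:36464935-36465184, plus strand: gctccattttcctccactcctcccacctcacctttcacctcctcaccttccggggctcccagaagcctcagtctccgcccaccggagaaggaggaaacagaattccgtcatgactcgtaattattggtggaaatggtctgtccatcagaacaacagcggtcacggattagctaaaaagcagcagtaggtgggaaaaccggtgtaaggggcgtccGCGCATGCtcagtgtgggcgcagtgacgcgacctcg
Timm8b, chr9:50603651-50603900, plus strand: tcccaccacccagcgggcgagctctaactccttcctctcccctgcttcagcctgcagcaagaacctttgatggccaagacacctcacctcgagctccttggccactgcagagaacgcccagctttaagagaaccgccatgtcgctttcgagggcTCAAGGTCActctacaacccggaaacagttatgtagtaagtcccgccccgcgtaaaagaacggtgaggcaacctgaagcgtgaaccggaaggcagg
Timm29, chr9:21592472-21592721, plus strand: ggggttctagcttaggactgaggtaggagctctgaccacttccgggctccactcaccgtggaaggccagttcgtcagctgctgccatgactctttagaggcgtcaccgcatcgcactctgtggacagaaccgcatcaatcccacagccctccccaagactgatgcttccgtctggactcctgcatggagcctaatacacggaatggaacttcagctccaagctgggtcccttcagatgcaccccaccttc

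The set of RefSeq promoters used here held 39 entries for 37 of the 41 members, each with 250 bases before and 50 after the start. This set had no entry for Tomm7, Tomm40l, Timm21 and Grpel2. Both strands of the 39 entries were searched for 3 motifs that do not contain one another. The composite C/EBP-ATF element TGATGNAA, which ATF4 dimers bind, was in 0 of the 39 entries and in 3.97% of all 32851 promoters. The core NRF1 site GCGCATGC, a motif of many nuclear genes for mitochondrial proteins, was in 2 of the 39, against 2.71% of all promoters. It began 36 bases before the start of Grpel1 and, on the reverse strand, 192 bases before that of Timm13. The estrogen-related receptor element TCAAGGTCA was in 1 of the 39, 96 bases before the start of Timm8b, against 0.423% of all. Median GC content was 58.0% in the members' entries and 52.7% in all. These matches are letters in a window and not measured binding.

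Both members of the MIA disulfide relay were called higher. Chchd4 (chromosome 6, 91462172 to 91473546), which encodes the oxidoreductase that folds imported cysteine-rich proteins, the small TIMs among them, was at 28.6, 27.5, 30.1 and 24.4 CPM in WT and at 44.2, 44.5, 40.4 and 39.9 CPM in TAZG197V. Gfer (chromosome 17, 24693187 to 24696156), which encodes the sulfhydryl oxidase that reoxidises it, was at 11.9, 9.37, 12.4 and 9.87 CPM in WT and at 18, 18.9, 16.7 and 15.5 CPM in TAZG197V. In neither gene did the genotypes overlap. Their log2 fold changes were close, at 0.62 for Chchd4 (SE 0.0689, adjusted p = 0.000315) and 0.64 for Gfer (SE 0.0878, adjusted p = 0.000842). Of the 50-base windows of Gfer 20.6% recur in other genes.

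Metaxins are outer membrane proteins that work with the machinery for inserting beta-barrel proteins. Of the 3 genes, Mtx2 was called higher. It was at 100.2, 90, 108.5 and 88.3 CPM in WT and at 135.8, 145.4, 130.9 and 120.5 CPM in TAZG197V, without overlap and with a log2 fold change of 0.45 (SE 0.0627, adjusted p = 0.000932). For Mtx1 the TAZG197V libraries (12.2 to 14.8 CPM) also lay above the WT libraries (10.9 to 11.6 CPM), but its log2 fold change of 0.21 had an adjusted p of 0.0767. Of the exon bases of Mtx1 30.1% lie in exons of other genes, so its counts are uncertain. Mtx3 gave 0.08 (-0.07 to 0.22).

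Among the proteases that process imported proteins, 2 of 5 were called higher and 0 lower. Immp2l, a subunit of the inner membrane peptidase, was at 14.2, 10.8, 12.3 and 9.64 CPM in WT and at 19.5, 20.9, 17.9 and 14.7 CPM in TAZG197V. The lowest TAZG197V library lay just above the highest WT library, and the log2 fold change was 0.63 (SE 0.102, adjusted p = 0.00202). Its partner subunit Immp1l gave -0.05 (-0.25 to 0.15), and 33.8% of its 50-base windows recur in another gene, so its counts are uncertain. Pmpcb, the catalytic subunit of the matrix processing peptidase, rose from 178.3 ± 17.4 to 210.2 ± 18.4 CPM (0.23, adjusted p = 0.0205) with overlap between the genotypes, and this call was the least stable of the rises, being made in 10 of 19 alternative analyses. Pmpca, its partner, gave 0.04 (-0.08 to 0.17) with 20.4% of its exon bases in exons of other genes, and Mipep, which trims intermediates further, gave -0.09 (-0.23 to 0.04).

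To ask whether related members moved unequally, the log2 ratio of 10 pairs was taken within each library. In 7 pairs the 4 TAZG197V ratios did not overlap the 4 WT ratios. A two-sided exact permutation test gave p = 0.0286 in each, the smallest p that 4 against 4 allows. After adjustment over the 10 pairs this was 0.0408. Since the pairs were chosen with earlier results of these data known, these p-values are not an independent test. The largest shift was that of Timm10 against Timm10b, whose log2 ratio went from 2.47 ± 0.32 in WT to 3.49 ± 0.14 in TAZG197V (SD, n = 4 each). Timm8a1 gained on Timm8b, with ratios of -5.09 ± 0.31 and -4.34 ± 0.12. Dnajc15 gained on Dnajc19, with ratios of 2.17 ± 0.12 and 2.78 ± 0.14.

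The ratio of the inner membrane peptidase subunits fell. The log2 CPM ratio of Immp1l to Immp2l was 0.27, 0.38, 0.36 and 0.40 in WT and -0.42, -0.51, -0.14 and -0.23 in TAZG197V. Per kilobase of exon Immp1l stayed above Immp2l in both genotypes, at 15.2 against 9.98 CPM per kilobase in TAZG197V. Grpel2 gained on Grpel1, the ratio of Grpel1 to Grpel2 shifting by -0.45 (SE 0.0762). Smaller shifts were those of Mtx1 against Mtx2 (-0.24) and of Tomm40 against Tomm40l (0.19), the latter with the uncertain counts of Tomm40l. The ratios with Immp1l, Mtx1, Timm8a1, Timm8b, Timm10b and Pmpca carry the same uncertainty. For Timm17a against Timm17b the shift was 0.15 (exact p = 0.0857), for Mtx1 against Mtx3 0.14 (exact p = 0.2) and for Pmpca against Pmpcb -0.19 (exact p = 0.0571), none of which passed 0.05.

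**Figure D4:**
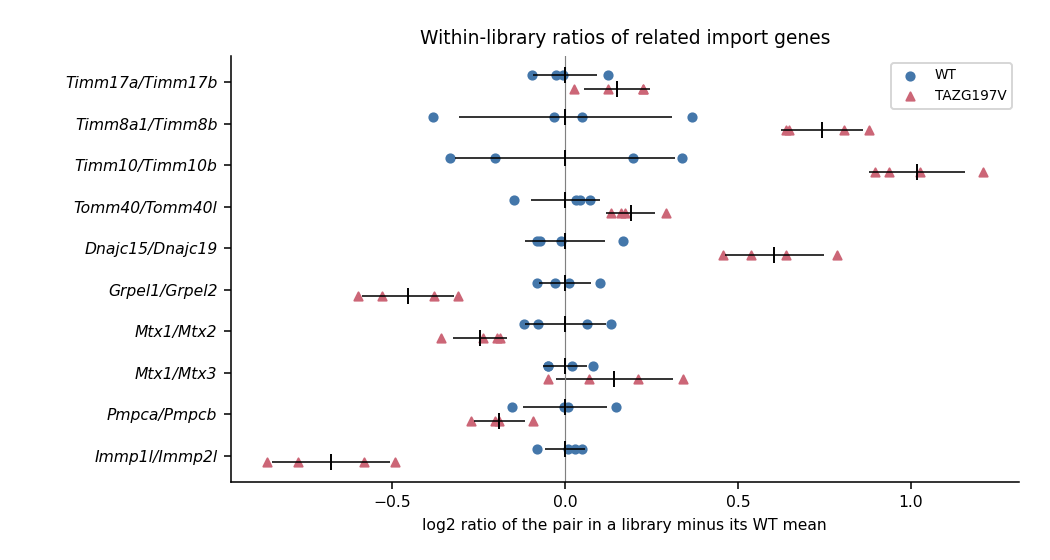
Log2 ratio of the first to the second gene of 10 pairs in each library, minus the mean of the 4 WT libraries (x axis), with WT as circles and TAZG197V as triangles, the mean as a tick and the SD as a bar. The ratios of 7 pairs do not overlap between genotypes, with the largest shifts for Timm10/Timm10b (1.02) and Timm8a1/Timm8b (0.74) and the largest negative one for Immp1l/Immp2l (-0.68).

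Levels were compared between genes as CPM per kilobase of annotated exon. This scale divides by all exon bases of a gene, so genes with long rarely used exons are set too low. In WT hearts Timm8b was highest, at 99.2 ± 14.8 CPM per kilobase (SD, n = 4), beyond the next gene by more than both SDs together. Tomm7 (46.5 ± 6.74), Timm10 (42.3 ± 9.25), Tomm5 (38.5 ± 7.62) and Pmpcb (34.7 ± 3.38) followed, and each of these lay within the spread of its neighbour in that order. In TAZG197V Timm10 stood second, at 81.1 ± 10.3 CPM per kilobase, ahead of Tomm5 (60.2 ± 6.55) and Tomm7 (57.6 ± 6.93). At the low end of WT were Grpel2 (2.61 ± 0.272), Timm10b (1.69 ± 0.182), Timm23 (1.39 ± 0.221), Timm8a1 (1.02 ± 0.126) and Pam16 (0.350 ± 0.050), the low values of Timm10b, Timm23, Timm8a1 and Pam16 being those of genes that share sequence with others. Rises occurred at both high and low levels, with Timm10 and Timm8a1 as examples.

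**Figure D5:**
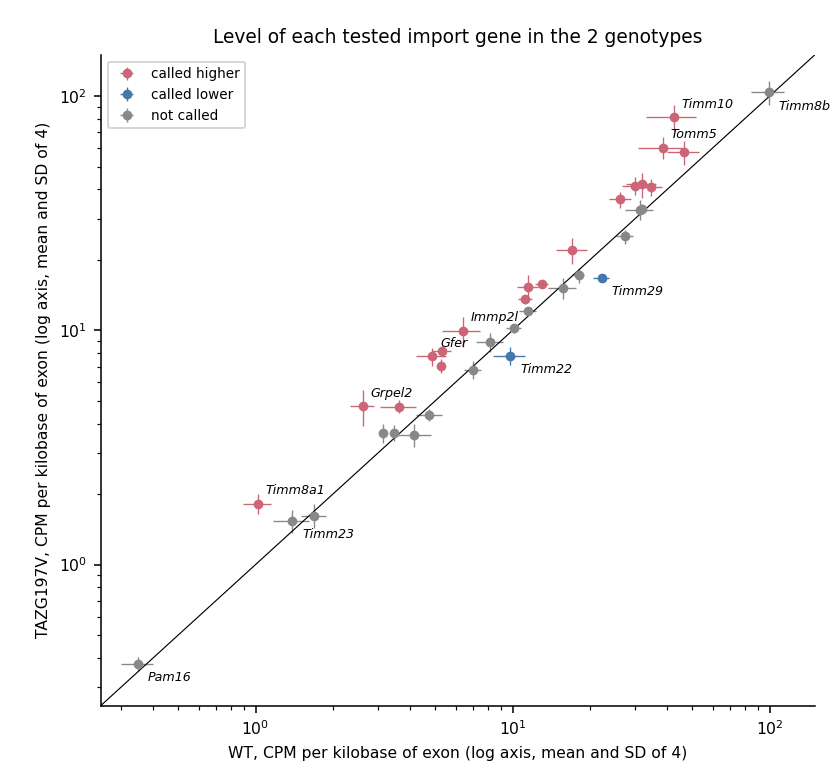
Mean level of each tested import gene in TAZG197V (y axis) against WT (x axis) in CPM per kilobase of exon on log axes, with bars for the SD over 4 libraries and a line of equal level. Genes called higher lie above the line from Timm8a1 at 1.02 to Tomm7 at 46.5 in WT, and Timm22 and Timm29 lie below it.

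Within a genotype the libraries differed in the level of many members. WT 4 was the lowest WT library in 22 of the 37 tested members (59.5%) and in 31.5% of all genes tested, and TAZG197V 4 was the lowest TAZG197V library in 31 members (83.8%) and in 36.9% of all genes. The median log2 difference from the other libraries of the genotype was -0.17 for WT 4 and -0.20 for TAZG197V 4 over the members, and 0.00 and -0.04 over all genes. WT 3 was the highest WT library in 22 members (59.5%, against 24.2% of all genes) and TAZG197V 2 the highest TAZG197V library in 20 (54.1%, against 27.5%). These shares are descriptions, and the part of the red cell and brain RNA of the number 4 libraries in them was not tested. Without both number 4 libraries the same 18 members were called higher and the same 2 lower, among 2833 and 2360 of 15232 genes. Without WT 2 all of these members but Pmpcb were called, among 2453 genes higher and 1938 lower of 15136. Sequencing lane 7 held the libraries numbered 1 and 2 of both genotypes, and lane 8 held those numbered 3 and 4. All 18 members called higher were higher in TAZG197V within each lane. The log2 differences were 0.25 to 1.08 in lane 7 and 0.15 to 0.82 in lane 8. Both members called lower were lower within each lane. These members were called in the same libraries, so where the genotypes did not overlap the sign within a lane was fixed in advance. The values describe the size of the difference in each lane.

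Of 14 other genes of the import pathway outside the naming rule 4 (28.6%) were called higher and 0 lower, beside 18.5% and 15.1% of all genes tested. Their median log2 fold change was 0.08, and their share was not tested against that of the members. Hspa9, which encodes mitochondrial HSP70, the ATPase of the motor, was at 833.5, 753.5, 852.0 and 762.6 CPM in WT and at 2078.8, 2058.0, 2028.7 and 1844.5 CPM in TAZG197V. It was 2.48-fold higher (log2 fold change 1.31, SE 0.066, adjusted p = 6.17e-06), a larger change than that of any member. Dnlz, which keeps HSP70 soluble, rose by 0.55, Agk, a lipid kinase that is also a subunit of the TIM22 complex, by 0.45 and Pitrm1, which degrades cleaved presequences, by 0.30. The call of Agk was lost without TAZG197V 1 and without TAZG197V 2 (adjusted p = 0.0707 in the latter).

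The remaining 10 were not called. Mtch2, an insertase of the outer membrane, had an adjusted p of 0.0413, but its fold change of 1.14 was under the threshold of 15%. Samm50, the core of the beta-barrel insertion machinery, gave 0.01, Oxa1l, which inserts proteins from the matrix side, gave -0.04, and Romo1, a small subunit of the TIM23 complex, gave -0.15. The inner membrane protease Yme1l1 gave 0.08, Aifm1, which binds the Chchd4 product, gave -0.03, and Mtch1, Bcs1l, Xpnpep3 and Timmdc1 gave 0.06 to 0.10.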

How the data were processed

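TruSeq libraries from 4 WT and 4 TAZG197V heart samples were sequenced as 50-base single-end reads. The authors aligned reads to mm10, as their methods and the labels state, with STAR 2.7.3a and counted them over exons with featureCounts (Subread 2.0.0). The deposited files hold raw counts, 1 whole number for each Ensembl gene ID. The annotation, strand setting and handling of multiply aligned reads are not given in the sources used here, so tested members with over 15% of their exon bases or 50-base windows shared with other genes carry their share. Symbols and exons came from GENCODE M21 (GRCm38, mm10) and promoters from RefSeq.

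Counts were tested with edgeR 4.0.16 in R 4.3.3 (filterByExpr, TMM, two-sided quasi-likelihood F-test) with 2 surrogate variables from svaseq (sva 3.50.0), and p-values were adjusted by Benjamini-Hochberg over 15084 genes. The cut-offs were those of the study, applied to the edgeR fit. Pair ratios and within-lane differences used log2 CPM with a prior count of 2. The procedure was tested on simulated counts. Members, lists, pairs and motifs were chosen with earlier results of these data known. Values in every library are given for the members with the largest change in each group and for some others. Alternatives covered scaling, filter, DESeq2 1.42.0, covariates, cut-offs and omission of libraries. No 2 libraries agreed within sampling noise (chi-square per gene at least 10.2 within a genotype). The labels do not say that each library is a separate mouse, so p-values measure the spread between these samples. Deviations from the genotype means of libraries with the same number correlated at 0.0436 to 0.416. No correlations between different numbers were set beside these, so they do not decide whether the numbers are pairs. The numbers were not taken as pairs, and a replicate block changed no call of a member.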

Additional observations from a re-analysis of the deposited data

Results flagged for a closer look

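A sample far from the other 3 of its genotype was looked for in 74 groups of 4 libraries, 2 for each of the 37 tested members. Chance flags about 1 in 20 such groups, or 3.7 here, and 2 were found. For Tomm20 WT 2 was highest, at 26.7 CPM against 25.7 to 25.8 CPM in the other WT libraries, a gap of 0.900 of the group's range on the log2 scale. For Tomm34 TAZG197V 4 was highest, at 23.4 CPM against 19.4 to 20.0 CPM, a gap of 0.854 of the range. Tomm20 was called higher with every library left out in turn, and Tomm34 was not called.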

How the results depend on the processing

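Over 19 alternative analyses, all 18 members called higher and both called lower kept their sign. The 2 with stricter cut-offs reuse the main fit and cannot change a sign. The others refit the same libraries, all or in part, from which these members were called. Apart from the 2 alternatives with stricter cut-offs, 15 of the 18 and 1 of the 2 were called in all 17, the exceptions being Tomm7, Timm50, Pmpcb and Timm22. A fold change beyond 1.5 left 1843 genes called in all, 998 higher and 845 lower, with 7 members higher, 0 lower and 1 companion gene. An adjusted p under 0.01 left 3174 genes, 1879 higher and 1295 lower, with 15 members higher and 1 lower. Without surrogate variables 2410 of 15084 genes were called higher and 1782 lower, with 16 members higher and 1 lower. With sequencing lane in place of the surrogate variables 2436 genes were called higher and 1799 lower, with 15 members higher and 1 lower. With 1 library left out, members called higher ranged from 16 to 18 and members called lower from 2 to 3. The third was Dnajc19 without WT 4. All genes called ranged from 3675 (without TAZG197V 2) to 4816, with 2125 to 2679 higher and 1550 to 2145 lower. With a replicate block in place of the surrogate variables 4272 genes were called, 2438 higher and 1834 lower, with the same 18 and 2 members. The pairing by number was not taken as given, and the block changed no call of a member. DESeq2 called 2431 genes higher and 2287 lower, with the same 18 and 2 members. Leaving out the 3 members with over 50% of their windows found in other genes changed no count, since none of them was called. All 10 pair ratios kept their sign in 10 alternatives, but with 4 against 3 libraries the exact test cannot go below 0.0571. Timm8a1, Timm23 and Pam16 had few counts and the widest intervals, and each shares sequence with other genes.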
